A study of Homo sapiens with 6 samples.

Results

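Heme biosynthesis enzymes are described here by 7 genes, ALAS1, ALAD, UROS, UROD, CPOX, PPOX and FECH, out of 56638 gene names in the count table. They were taken by name for their place in the pathway, and all 7 were among the 16340 genes with enough counts to be tested. Polyadenylated RNA was sequenced from HL60, an established human line from acute myeloid leukaemia whose cells resemble promyelocytes and make the heme enzyme myeloperoxidase. The SKI knockout group held 3 libraries of HL60 cells in which CRISPR/Cas9 was used to delete SKI, a transcriptional co-repressor, all from the line numbered 3. The control group held 3 libraries of CRISPR/Cas9 control cells, all from the line numbered 1. Both were grown in RPMI with 10% FCS. Each group is thus 1 line, so that what SKI loss does and what sets these lines apart otherwise cannot be told apart. Whether the replicates came from separate cultures, or a line from a single clone, is not in the labels. A p-value here therefore reflects the spread of 3 libraries per group, and that spread may be technical.

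Heme is an iron-containing ring that serves as the cofactor of myeloperoxidase, catalase, the cytochromes and haemoglobin. Its synthesis starts in the mitochondrion, where aminolevulinate synthase joins glycine to succinyl-CoA, continues through several enzymes of the cytosol, and ends in the mitochondrion, where ferrochelatase inserts iron. ALAS1 is the form of the first enzyme used in most cells, and heme itself restrains it, whereas ALAS2 is the form of red cell precursors. In promyelocytes the pathway supplies the heme of myeloperoxidase, which is loaded into azurophil granules.

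Library totals ran from 47930276 to 56280696 counts in the SKI knockout and from 49684362 to 58553247 in the control. SKI itself stood at 59.6, 40.7 and 42.0 CPM (counts scaled by TMM-adjusted library size) in the SKI knockout libraries and at 63.9, 83.5 and 88.5 CPM in the control libraries, so the targeted mRNA was lower in the knockout without overlap but present. All 7 tested markers of promyelocytes were lower in every SKI knockout library than in any control library, as were 16.1% of all genes tested. Of these 7 markers 6 fell past the threshold, against 5.63% of all genes, among them AZU1 (log2 -2.63), PRTN3 (-4.18), MS4A3 (-1.55) and CD33 (-0.57). The MS4A3 call was lost without SKI knockout replicate 1 (edgeR adjusted p = 0.0746). That of CD33 was lost without SKI knockout replicate 1 (0.0932) or control replicate 1 (0.0968), 2 (0.109) or 3 (0.0907), and CD33 was at log2 -0.10 with chromosome centring and -0.04 with neighbour centring. The summed level of the 8 listed was 2730 to 8747 CPM in the SKI knockout and 11936 to 14315 CPM in the control, most of it MPO, while ELANE had 0 counts in every SKI knockout library and at most 4 in a control library. Of 14 erythroid markers 6 had no count in any library, among them the haemoglobin genes HBA1 and HBA2. The list summed to between 7.55 and 11.98 CPM in the SKI knockout and between 8.37 and 13.1 CPM in the control. Most of this was EPOR, at 6.46 to 10.95 CPM in the SKI knockout and 7.23 to 11.9 CPM in the control. None of the 3 tested erythroid markers passed the threshold. Of 6 lymphoid markers only CD79A was tested, and it rose (log2 1.70) at 5.87 CPM or less, a call lost without control replicate 2 (0.0657) or 3 (0.0521), while the other 5 were at or near 0 in every library. ALAS2 had 0 counts in all 6 libraries, which allows at most 0.0621 CPM in any SKI knockout library and 0.0628 CPM in any control library (3 counts per library, counting error only).

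The start regions of 4 of these genes are given for reference, and no result below rests on their letters. The genes were picked for their place in the results. ALAS1 opens the pathway, and ALAD is the one member that passed the test. CPOX had the most even knockout values in CPM, and FECH is the one member with a positive fold change. Each run holds the 250 bases before the RefSeq start in GRCh38.p14, at chr3:52197833-52198082 on the plus strand for ALAS1, chr9:113401285-113401534 on the minus strand for the outer of 2 ALAD starts, chr3:98593612-98593861 on the minus strand for CPOX and chr18:57586703-57586952 on the minus strand for FECH. Capitals mark matches, on either strand, to the GC box GGGCGG, the CCAAT box CCAAT, the GATA motif AGATAA, the E-box CACGTG or the NRF1 motif.
ALAS1: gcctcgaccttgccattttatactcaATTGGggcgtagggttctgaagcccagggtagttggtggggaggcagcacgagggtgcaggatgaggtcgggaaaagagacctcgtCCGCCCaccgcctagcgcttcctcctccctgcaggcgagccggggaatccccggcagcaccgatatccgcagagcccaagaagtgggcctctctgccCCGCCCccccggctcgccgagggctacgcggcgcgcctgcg
ALAD: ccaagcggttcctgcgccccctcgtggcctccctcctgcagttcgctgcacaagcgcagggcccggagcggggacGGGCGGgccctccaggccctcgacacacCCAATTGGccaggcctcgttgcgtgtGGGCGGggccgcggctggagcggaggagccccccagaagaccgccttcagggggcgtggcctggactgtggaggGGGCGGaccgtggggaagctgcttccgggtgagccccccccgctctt
CPOX: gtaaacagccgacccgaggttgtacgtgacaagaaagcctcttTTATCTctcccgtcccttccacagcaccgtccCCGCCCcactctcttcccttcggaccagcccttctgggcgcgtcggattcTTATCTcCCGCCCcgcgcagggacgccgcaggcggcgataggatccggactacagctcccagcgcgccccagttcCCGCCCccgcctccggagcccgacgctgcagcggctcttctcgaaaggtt
FECH: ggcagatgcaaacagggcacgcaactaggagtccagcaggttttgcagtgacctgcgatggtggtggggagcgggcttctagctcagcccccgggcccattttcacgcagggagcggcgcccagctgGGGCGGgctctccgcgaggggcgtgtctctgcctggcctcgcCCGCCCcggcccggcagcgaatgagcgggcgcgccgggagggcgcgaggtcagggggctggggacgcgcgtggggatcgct
Of the 7 genes, 6 had a promoter in the RefSeq table, with 2 starts each for ALAD and PPOX. The GC box occurred 2 times before the ALAS1 start, 3 times before the outer ALAD start, 3 times before CPOX and 2 times before FECH, and 42.6% of all 35116 windows of this length hold at least 1. The CCAAT box occurred 1 time in ALAS1 and 2 times in ALAD, where the 2 matches overlap on opposite strands, and is in 32% of all windows. CPOX was the only one of these 4 windows with AGATAA, in 2 copies, a motif in 9.17% of all windows. The inner PPOX start had 1 copy. None of the members' windows in the table held CACGTG (6.34% of all windows) or the NRF1 motif (5.07%). A match is a description of the letters only.

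Most of the pathway did not pass the test between SKI knockout and control cells. ALAD fell, to 0.609 times the control level, and the other 6 genes did not pass the test. In edgeR's quasi-likelihood test with Benjamini-Hochberg adjustment over all genes tested, 1 of 7 members (14.3%) had an adjusted p under 0.05, against 11.8% of all 16340 genes, and 5.63% of all genes were called in the lower direction. A share of 1 in 7 is close to the background. None of the 7 was called higher (6.19% of all genes were), by edgeR, DESeq2 or limma-voom. At an unadjusted p under 0.05, 1 member was higher and 2 were lower, while 27.1% of all genes had such a p. In CPM the libraries of the groups did not overlap for 3 members, ALAD, UROS and CPOX, or 42.9%, against 32.2% of all genes. All 3 were lower in the SKI knockout, as were 16.1% of all genes without overlap. A negative log2 fold change was found in 6 of the 7 members and in 50.8% of all genes. The median log2 fold change was -0.11 over the members and -0.01 over all genes tested, and the median size, whatever the sign, was 0.23 over the members and 0.24 over the 7069 genes with an average log2 CPM from 4 to 8. In bulk RNA, fewer cells of a kind and less RNA per cell cannot be told apart.

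**Figure D1:**
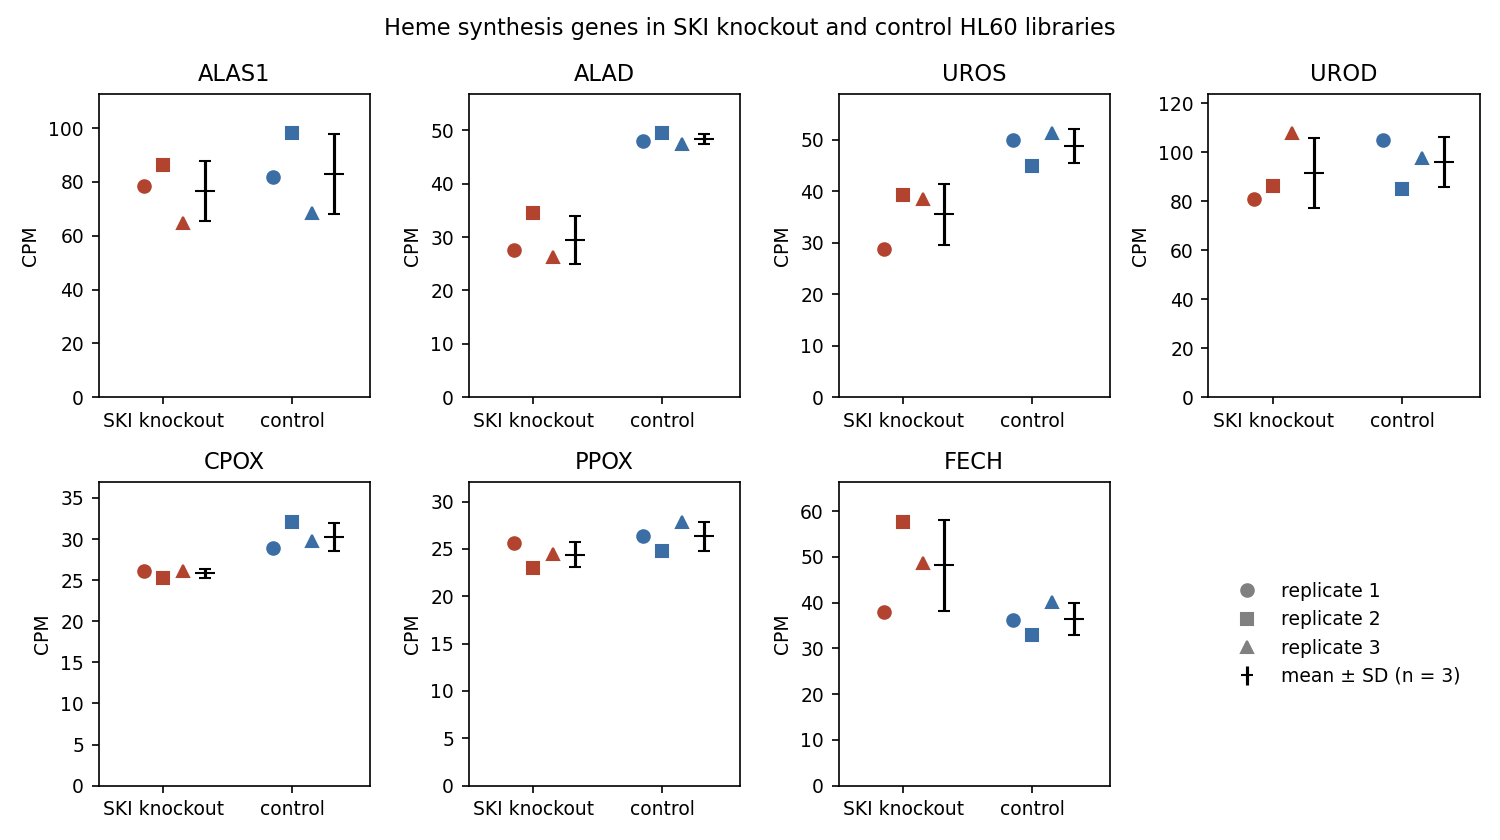
CPM of the 7 heme synthesis genes in each library, SKI knockout in red and control in blue, with symbols for replicates and the mean ± SD beside them (n = 3). ALAD, UROS and CPOX show no overlap between groups, and the 3 ALAD control values lie within 47.5 to 49.5 CPM.

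The enzyme that opens the pathway did not pass the test. ALAS1 stood at 78.6, 86.4 and 64.5 CPM in the SKI knockout and at 81.9, 98.1 and 68.4 CPM in the control. The ranges overlap, with the lowest value of each group in replicate 3 and the highest in replicate 2. ALAS1 averaged 76.5 ± 11.1 CPM in the SKI knockout and 82.8 ± 14.9 CPM in the control (SD, n = 3). Its log2 fold change was -0.11 with a 95% interval from -0.50 to 0.27 (edgeR adjusted p = 0.718). These libraries leave any change within that interval possible. Among the control libraries alone ALAS1 had a coefficient of variation of 17.9%, the widest of the 7, and ALAD one of 2.08%, the narrowest.

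ALAD, the cytosolic enzyme that condenses aminolevulinate to porphobilinogen and is known as a target of lead poisoning, was the one member that fell. It stood at 27.6, 34.6 and 26.3 CPM in the SKI knockout and at 48.1, 49.5 and 47.5 CPM in the control. All 3 SKI knockout libraries were below all 3 control libraries, with knockout replicate 2 the nearest to them. ALAD averaged 29.5 ± 4.47 CPM in the SKI knockout and 48.4 ± 1.01 CPM in the control (SD, n = 3), and its log2 fold change was -0.71 (SE 0.16, edgeR adjusted p = 0.0133). The authors' deposited table has ALAD at log2 -0.66, with a standard error of 0.178 and an adjusted p of 0.00284. The call was lost without SKI knockout replicate 1 (log2 -0.66, adjusted p = 0.0548), control replicate 2 (-0.70, 0.0596) or control replicate 3 (-0.73, 0.0580). It was lost as well, with the size of the change reduced, when each gene was centred on its chromosome (-0.49, 0.0726) or on its 50 nearest genes (-0.32, 0.208).

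UROS and UROD, the cytosolic enzymes that form and trim the porphyrinogen ring, did not pass the test. UROS, which closes the ring, stood at 28.7, 39.2 and 38.6 CPM in the SKI knockout and at 49.9, 44.9 and 51.3 CPM in the control. The groups did not overlap, and knockout replicate 1 was the lowest of the 6. UROS averaged 35.5 ± 5.90 CPM in the SKI knockout and 48.7 ± 3.32 CPM in the control (SD, n = 3). Its log2 fold change was -0.46, with a 95% interval from -0.82 to -0.10, and UROS missed the threshold after adjustment over all genes (edgeR adjusted p = 0.0956). UROD, which trims the ring's side chains, stood at 80.9, 86.1 and 108 CPM in the SKI knockout and at 105, 85.0 and 97.6 CPM in the control. Its highest CPM was in a SKI knockout library and the groups overlapped through most of their range. The UROD log2 fold change was -0.07 with a 95% interval from -0.42 to 0.28 (edgeR adjusted p = 0.832).

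The last steps take place in the mitochondrion. CPOX, which acts in the space between its membranes, stood at 26.1, 25.2 and 26.1 CPM in the SKI knockout and at 28.9, 32.1 and 29.8 CPM in the control. In CPM the 3 SKI knockout values lay together and below every control value, with a coefficient of variation of 1.93% against 5.56% in the control. The log2 fold change of CPOX was -0.23 with a 95% interval from -0.55 to 0.09 and it did not pass (edgeR adjusted p = 0.347). PPOX, which oxidises the ring to protoporphyrin, stood at 25.6, 23.0 and 24.5 CPM in the SKI knockout and at 26.3, 24.8 and 27.9 CPM in the control. These values overlap, and its log2 fold change was -0.11 with a 95% interval from -0.44 to 0.22 (edgeR adjusted p = 0.680). PPOX exons overlap those of B4GALT3 on the opposite strand, and exons of CPOX overlap those of AC021660.3 on the same strand in GENCODE release 29. The strand setting of the counting is not known here, so reads of PPOX and B4GALT3 may be mixed. Reads of CPOX and AC021660.3, on the same strand, may be mixed whatever that setting.

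FECH, the ferrochelatase that inserts iron into protoporphyrin, was the one member with a positive fold change. It stood at 37.9, 57.7 and 48.7 CPM in the SKI knockout and at 36.2, 33.0 and 40.1 CPM in the control. In CPM, SKI knockout replicates 2 and 3 were above every control library, whereas replicate 1 lay inside the control range. FECH averaged 48.1 ± 9.92 CPM in the SKI knockout and 36.4 ± 3.51 CPM in the control (SD, n = 3). Its log2 fold change was 0.40, with a 95% interval from 0.014 to 0.79, and FECH did not pass after adjustment (edgeR adjusted p = 0.170). Over the alternatives its log2 fold change lay between 0.27, without SKI knockout replicate 2, and 0.56, without SKI knockout replicate 1, and its adjusted p between 0.0768 and 0.427. The pseudogene FECHP1 is a separate entry of the count table and had 0 counts in all 6 libraries.

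**Figure D2:**
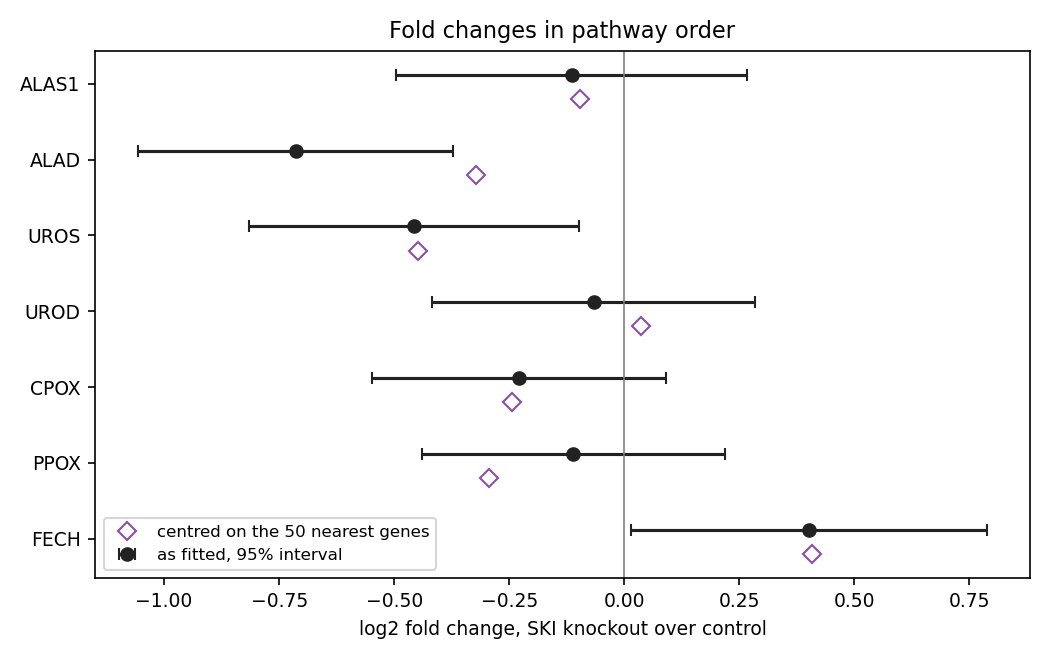
Log2 fold change of SKI knockout over control for the 7 genes in pathway order, as fitted with 95% intervals (filled) and after centring each gene on its 50 nearest genes (open diamonds). ALAD is at -0.71 as fitted and at -0.32 after centring, and PPOX at -0.11 and -0.295. UROD goes from -0.07 to 0.037, while UROS and FECH hardly move.

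Within a library the balance between members is free of library scaling, and this comparison was chosen after the values were seen, so it carries no test. The ratio of FECH to ALAD, both in TPM (counts per kilobase of the deposited gene length, scaled to the same total in every library), was 1.59, 1.93 and 2.15 in the SKI knockout and 0.871, 0.772 and 0.974 in the control. FECH was thus above ALAD in every SKI knockout library and below it in every control library. The ratio of ALAD to ALAS1 was 0.172, 0.196 and 0.200 in the SKI knockout and 0.288, 0.247 and 0.341 in the control, again without overlap. ALAD made up 5.06% to 6.38% of the summed TPM of the 7 genes in the SKI knockout and 8.32% to 8.72% in the control. FECH made up 9.17% to 12.3% in the SKI knockout and 6.71% to 8.49% in the control. The summed level of the 7 genes was 329, 342 and 283 TPM in the SKI knockout and 340, 362 and 352 TPM in the control, where knockout replicate 2 lay inside the control range. On the CPM scale the same sum was 306, 352 and 337 in the SKI knockout and 377, 367 and 363 in the control, with no overlap, so whether the summed levels separate depends on the scale.

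Levels per deposited length put UROD and ALAS1 far above the other members. UROD had 100.1 ± 3.99 TPM in the SKI knockout and 106 ± 8.64 TPM in the control, and ALAS1 had 97.8 ± 22.6 TPM in the SKI knockout and 105 ± 19.6 TPM in the control (SD, n = 3), and the order of these neighbours differed from library to library in both groups. In the SKI knockout they were followed by FECH at 34.3 ± 6.73, UROS at 27.7 ± 3.29, CPOX at 22.6 ± 2.70, ALAD at 18.4 ± 3.80 and PPOX at 17.0 ± 2.50 TPM. In the control the order after them was UROS at 38.5 ± 3.03, ALAD at 30.1 ± 1.65, CPOX at 26.6 ± 2.46, FECH at 26.3 ± 3.12 and PPOX at 18.4 ± 1.53 TPM. FECH was the third highest in every SKI knockout library, but UROS and CPOX, and ALAD and PPOX, changed places between libraries. In every control library UROS was the third, ALAD the fourth and PPOX the last, and CPOX and FECH changed places. The deposited lengths are longer than the principal transcripts in GENCODE release 29, by 2.97 times for UROS and 2.24 times for UROD but 1.04 times for ALAS1. On principal transcript lengths, an alternative added once the data had been seen, UROS had 82.3 TPM in the SKI knockout and 114 TPM in the control, close to ALAS1 at 102 TPM in the SKI knockout and 110 TPM in the control. On those lengths UROD led at 224 TPM in the SKI knockout and 237 TPM in the control. The ALAS1 to PPOX ratio in the control was 5.71 with deposited lengths and 2.25 with principal ones. The order of the members, the lead of UROD over ALAS1 included, thus depends on the length used.

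**Figure D3:**
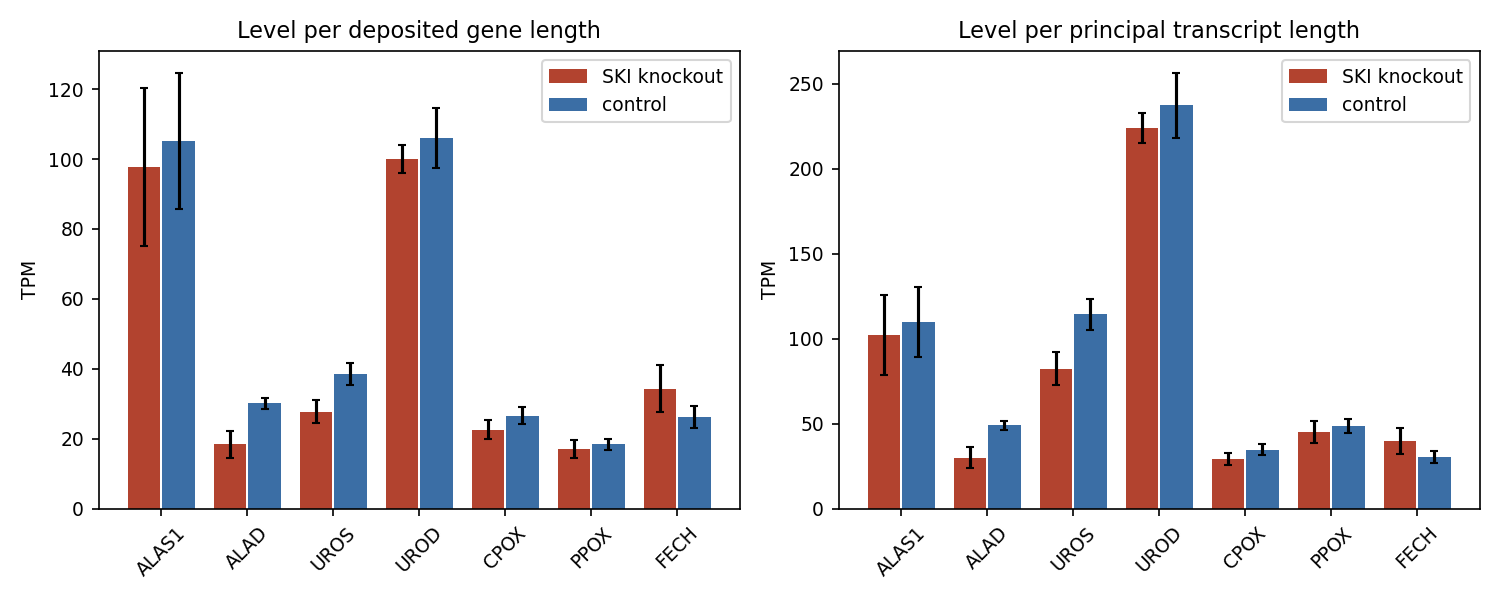
Mean TPM ± SD (n = 3) of the 7 genes in SKI knockout (red) and control (blue), on deposited gene lengths (left) and principal transcript lengths (right). UROD is near 100 TPM on the left and at 224 TPM or more on the right in both groups, and PPOX is last on the left in both groups but not on the right.

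ALAD lies in a stretch of chromosome 9 where most genes were lower in the SKI knockout. Of its 50 nearest tested genes with an average log2 CPM above 2, 40 had a negative log2 fold change, with a median of -0.34 and quartiles of -0.65 and -0.19, and 13 of them fell and 1 rose past the threshold. Only 9 of the 50 had a lower value than ALAD. Around the other members the median of the 50 nearest genes was between -0.09, at UROD, and 0.12, at PPOX, with at most 2 that fell. Around PPOX 6 of the 50 rose, and PPOX went from log2 -0.11 to -0.295 with neighbour centring. Of the 50 nearest genes of UROS 3 had a lower value than UROS, and of those of FECH 44 had a lower value than FECH. For centring, the median deviation of the 50 neighbours was taken in each library and averaged over each group. The SKI knockout average less the control average was -0.40 on the log2 scale around ALAD, against -0.71 for ALAD itself. What this shared shift stems from was not tested.

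**Figure D4:**
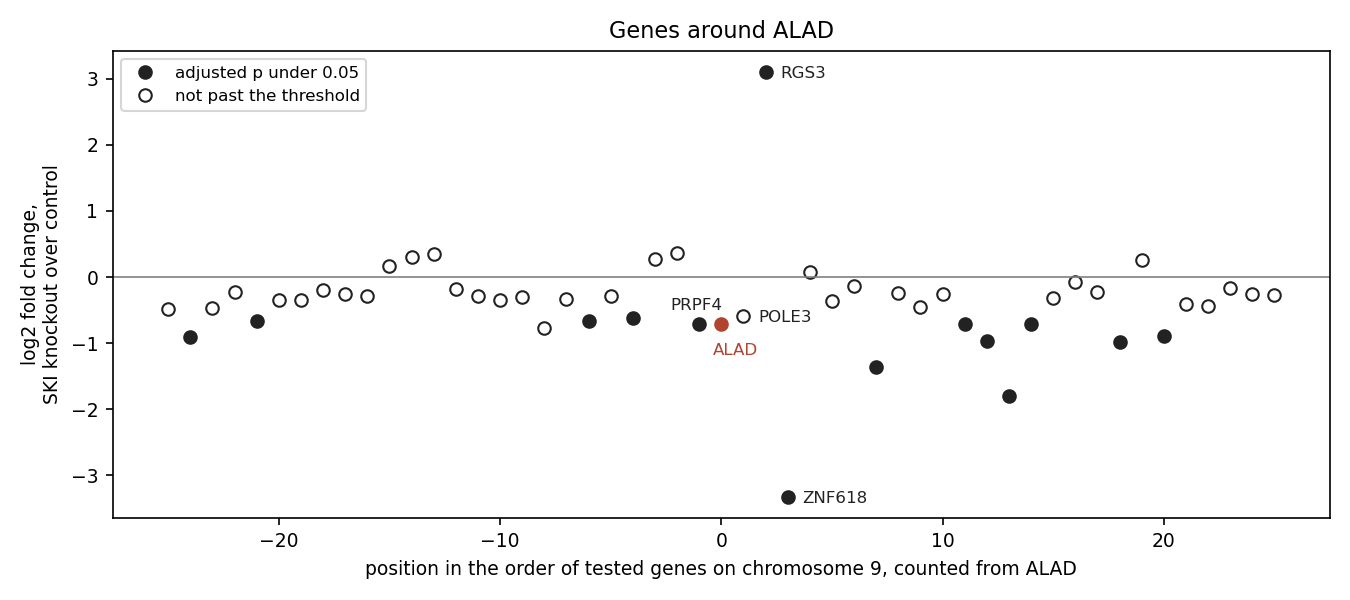
Log2 fold change of SKI knockout over control for the genes up to 25 positions to either side of ALAD (red) in the order of tested genes on chromosome 9, filled where the adjusted p was under 0.05. Most points lie below 0, PRPF4 is at the height of ALAD, and RGS3 at 3.11 and ZNF618 at -3.33 stand apart.

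The gene most alike to ALAD over the 6 libraries was a physical neighbour. Likeness was measured as the root mean square difference between log2 CPM profiles, each centred on its own mean, over the 7624 genes whose average log2 CPM was 4 or more. For ALAD it was smallest for PRPF4, a spliceosome component, at 0.0265, and next for FBXL16, an F-box protein gene on chromosome 16, at 0.0363. PRPF4 stood at 36.0, 46.8 and 35.6 CPM in the SKI knockout and at 64.2, 64.8 and 65.3 CPM in the control, and fell by 0.71 on the log2 scale (SE 0.16, edgeR adjusted p = 0.0127). The ratio of PRPF4 to ALAD in CPM was 1.31, 1.35 and 1.35 in the SKI knockout and 1.34, 1.31 and 1.37 in the control, nearly the same in all 6 libraries although both genes differed between the groups. PRPF4 is the next gene to ALAD on 1 side in the order of tested genes with an average log2 CPM above 2. POLE3, a histone-fold subunit of DNA polymerase epsilon and the next gene on the other side, had a log2 fold change of -0.59 and narrowly missed the threshold (edgeR adjusted p = 0.0503). RGS3 and ZNF618, the genes beyond POLE3, had log2 fold changes of 3.11 and -3.33. RGS3 averaged 20.5 CPM in the SKI knockout and 2.40 CPM in the control. ZNF618 averaged 2.15 CPM in the SKI knockout and 21.5 CPM in the control.

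For the other members the most alike gene lay on another chromosome than the member. The smallest differences were 0.0174 between CPOX and PPM1A, a protein phosphatase gene, and 0.019 between PPOX and BAHD1, a chromatin protein gene. KTI12 and ACTG1 were nearest to ALAS1 (0.0474 and 0.0548), and GTF2F1 and DDX23 to UROS (0.0526 and 0.0539). LSM4 and ANKZF1 were nearest to UROD (0.0433 and 0.0436). FECH had no gene nearer than EMG1 at 0.0966, followed by THOC5 at 0.0976, the widest gap of the 7. PANK4 and KDM4A came next for CPOX (0.0369) and PPOX (0.0277). Among the members themselves CPOX and PPOX were most alike (0.109), and ALAD and FECH least (0.577). With 6 libraries and 7624 genes searched, such closeness is a description only.

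Among the genes around the pathway, 3 of 4 genes of heme breakdown rose, while none of the transport or supply lists passed the test in edgeR. Of 99 genes in the 8 companion lists 88 were tested, of which 7 rose and 8 fell, 17.0% against 11.8% of all genes, with a median log2 fold change of -0.08. Heme oxygenase and biliverdin reductase genes moved furthest as a list: of 4 genes of heme breakdown 3 rose and 1 did not pass (median log2 1.83). HMOX1, the inducible heme oxygenase, stood at 0.777, 0.352 and 0.915 CPM in the SKI knockout and at 0.251, 0.119 and 0.0881 CPM in the control, low in both (log2 2.18, SE 0.51, edgeR adjusted p = 0.0175). BLVRA, a biliverdin reductase, stood at 5.98, 7.89 and 13.8 CPM in the SKI knockout and at 2.87, 1.22 and 2.89 CPM in the control (log2 1.99, SE 0.38, edgeR adjusted p = 0.00673), and kept its call in the 15 alternatives tried. BLVRB, the other reductase, stood at 12.4, 7.57 and 19.8 CPM in the SKI knockout and at 6.49, 2.48 and 3.52 CPM in the control (log2 1.68, edgeR adjusted p = 0.0164). In all 3 genes every SKI knockout library was above every control library, as in 16% of all genes tested. HMOX2, the constitutive oxygenase, had a log2 fold change of -0.27 and did not pass. Without SKI knockout replicate 1, control replicate 2 or control replicate 3 the calls of HMOX1 (adjusted p = 0.0740, 0.0821 and 0.104) and BLVRB (0.0584, 0.0624 and 0.0942) were lost, and neighbour centring ended that of HMOX1 (0.0503), which was too low to be tested with a minimum of 1 CPM in 3 libraries.

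**Figure D5:**
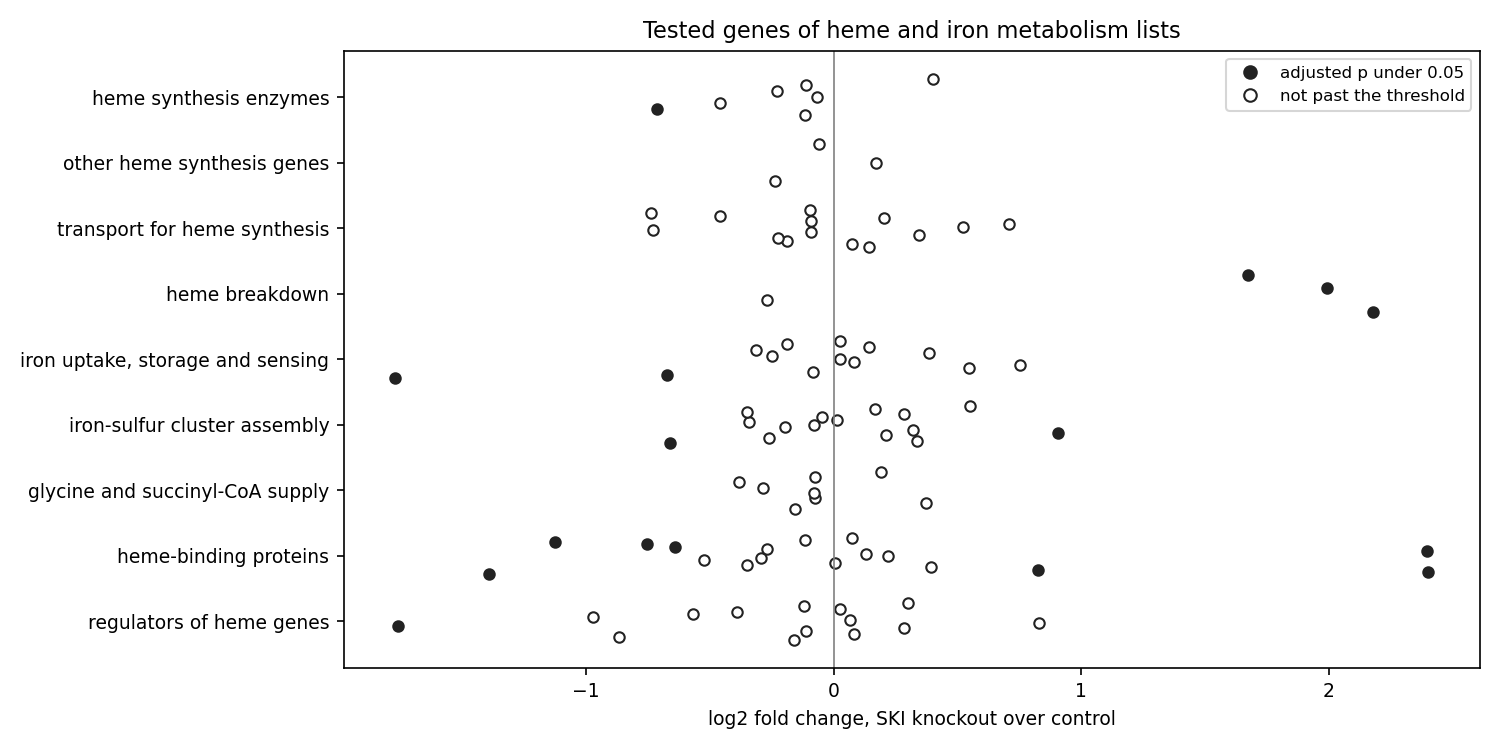
Log2 fold change of SKI knockout over control for the tested genes of the heme and iron lists, 1 point per gene, filled where the adjusted p was under 0.05. The filled points of heme breakdown lie between 1.68 and 2.18, and no gene of the transport or supply lists is filled.

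Transferrin receptor mRNAs were lower in the SKI knockout, where 5.63% of all genes tested fell and 6.19% rose past the threshold. Of 13 tested genes of iron uptake, storage and sensing 2 fell and none rose (3 were higher at an unadjusted p under 0.05, and DESeq2 called 1 and limma-voom 0). TFRC, the transferrin receptor, stood at 35.1, 88.7 and 42.3 CPM in the SKI knockout and at 105, 265 and 195 CPM in the control, 3.41-fold lower (log2 -1.77, SE 0.37, edgeR adjusted p = 0.0102). The groups did not overlap but each was widely spread, and the call was lost without SKI knockout replicate 1 (0.0613) or control replicate 3 (0.0535). TFR2, its relative, stood at 17.4, 20.1 and 16.3 CPM in the SKI knockout and at 24.9, 26.8 and 33.9 CPM in the control (log2 -0.67, edgeR adjusted p = 0.0292). Its call ended with library totals (0.0594), with neighbour centring (0.0739) and without SKI knockout replicate 1 (0.0979), control replicate 2 (0.0725) or control replicate 3 (0.146). Of 15 iron-sulfur cluster genes, HSCB, a co-chaperone of cluster transfer, rose (log2 0.91, edgeR adjusted p = 0.0104) and NFS1, the cysteine desulfurase, fell (log2 -0.66, edgeR adjusted p = 0.0454). The HSCB call was lost without control replicate 2 (0.0519) or 3 (0.0652) and under chromosome (0.0523) and neighbour centring (0.0713). That of NFS1 was lost in 7 of 15 alternatives, which included leaving out any library but SKI knockout replicate 2.

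Transport, precursor supply and regulators gave few calls. Over all genes tested, 11.8% were called in edgeR and 27.1% had an unadjusted p under 0.05. Of 14 genes of transport for heme synthesis none passed in edgeR (1 higher and 3 lower at an unadjusted p under 0.05), and DESeq2 and limma-voom called 1 lower each. SLC25A38, the mitochondrial carrier known for bringing glycine to ALAS, stood at 58.5, 59.5 and 67.8 CPM in the SKI knockout and at 58.9, 57.6 and 51.6 CPM in the control (log2 0.14, edgeR adjusted p = 0.558). None of 8 genes of glycine and succinyl-CoA supply passed in edgeR, DESeq2 or limma-voom, with 1 higher and 1 lower at an unadjusted p under 0.05. The 3 tested genes among the other heme synthesis genes, COX10, COX15 and CLPX, had no call in any of these tools and none at an unadjusted p under 0.05. Of 14 regulators of heme genes 1 fell in edgeR, while DESeq2 and limma-voom called 2 lower each, and at an unadjusted p under 0.05 there were 1 higher and 4 lower. The gene that fell was KLF1, an erythroid transcription factor, at 0.361, 0.786 and 0.800 CPM in the SKI knockout, against 2.62, 2.04 and 1.94 CPM in the control (log2 -1.76, edgeR adjusted p = 0.00807). BACH1, the heme-sensing repressor of HMOX1, had a log2 fold change of -0.16 with a 95% interval from -0.57 to 0.25 and did not pass (edgeR adjusted p = 0.628).

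Heme-binding proteins moved in both directions. Of 17 tested, 3 rose and 4 fell, with a median log2 fold change of -0.12. Over all genes tested, 6.19% rose and 5.63% fell past the threshold. MPO, the main heme protein of promyelocytes, had 3416, 7690 and 1991 TPM in the SKI knockout and 10622, 12699.7 and 10701 TPM in the control, or 10.4, 22.5 and 7.04 times the summed TPM of the 7 enzymes in the SKI knockout and 31.2, 35.1 and 30.4 times in the control. Its log2 fold change was -1.39 (edgeR adjusted p = 0.0365), and the call was lost in DESeq2 (0.0667) and without SKI knockout replicate 1 (0.136) or control replicate 1 (0.0601), 2 (0.108) or 3 (0.103). SKI knockout replicate 2 was the highest of its group in MPO and TFRC. Among the members it was the highest in ALAS1, ALAD, UROS and FECH, but not in UROD, CPOX or PPOX. TBXAS1, the heme-containing thromboxane synthase, rose (log2 2.40, edgeR adjusted p = 0.000411), and CYB5A, cytochrome b5, fell (log2 -1.13, edgeR adjusted p = 0.00413), in all 15 alternatives each. EPX (log2 2.40, edgeR adjusted p = 0.0450) and CYBB (log2 0.83, edgeR adjusted p = 0.0458) rose as well. They were low, EPX at 8.73 CPM or less and CYBB at 3.34 CPM or less in every library. The alternatives were not read for EPX and CYBB singly. FADS1 and FADS2, fatty acid desaturases with a cytochrome b5 domain, had log2 fold changes of -0.64 and -0.75 (edgeR adjusted p = 0.0182 and 0.0131). The FADS2 call was lost without control replicate 3 (0.0634), and that of FADS1 without SKI knockout replicate 1 (0.0688) or control replicate 1 (0.0785), 2 (0.0515) or 3 (0.0856). The promyelocyte markers given above moved with the groups beside ALAD and MPO, and their part in these results was not tested.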

How the data were processed

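The authors deposited raw counts per gene together with a gene length. Their second deposited table holds scaled counts (a read-level signal after division by size factors) beside log2 fold changes, a test score and p-values of the authors' own comparison. Per the submitters' processing notes the tools included TopHat2 and bcl2fastq, featureCounts of the Subread package, DESeq and DESeq2, on the build hg19 (GRCh37). Tool versions, gene annotation, strand setting and treatment of shared reads are not known here. Per the labels' protocols, a stranded mRNA kit was used.

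Tests used the raw counts. After filterByExpr and TMM scaling, edgeR 4.0.16 in R 4.3.3 fitted its quasi-likelihood F test with group as the only term. The adjustment was that of Benjamini and Hochberg over all genes tested, with a threshold of 0.05. Standard errors and 95% intervals were derived from the F statistic, TPM from the deposited length, and log2 CPM with a prior count of 2. Between 66.5% and 82.6% of well-counted genes differed beyond counting noise in each pair of libraries within a group. Scripts were tested on simulated data. Gene order came from GENCODE release 29 by symbol (84% of genes tested were placed) and promoters from RefSeq, both on GRCh38. Intervals and floors cover counting error only where they rest on counts of a single library.

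The members and lists were chosen with earlier results of these data known. The rule for names took all members, each list's called genes up to the 4 smallest p, the 2 genes most alike to each member, and MPO, HMOX1, TFRC, BACH1 and SLC25A38. Other names, such as POLE3, RGS3, ZNF618, HMOX2, ELANE, EPOR, EPX, CYBB and the near-threshold genes, were added once their values had been seen. A withheld item is not reported here. Settings tried instead were size factors from DESeq2 1.42.0, plain library totals, no expression filter or a minimum of 1 CPM in 3 libraries, the Wald test of DESeq2, voom of limma 3.58.1, a replicate block, the removal of single libraries, and centring on a gene's chromosome or its 50 nearest genes.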

Additional observations from a re-analysis of the deposited data

How the results depend on the processing

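Across the 15 alternatives the ALAD log2 fold change kept its sign, between -0.82 and -0.32, and its call in 10. The number of members called lower was 1 in the main comparison, 0 with chromosome or neighbour centring and 0 to 1 when a library was left out. None was called higher under any alternative. UROS, CPOX, PPOX and FECH kept their sign and stayed short of the threshold throughout. The sign was not stable for genes near 0: UROD was at 0.037 with neighbour centring and between -0.18 and 0.032 without single libraries (0.0009 without SKI knockout replicate 2 and 0.0036 without control replicate 1) and ALAS1 between -0.24 and 0.025 (0.014 without SKI knockout replicate 3). Over all genes, 1012 were higher and 920 lower, and 553 and 500 were lower with chromosome and neighbour centring. With no filter 1630 were higher. That setting tests more genes and also changed the adjusted p of genes tested in the main comparison. Without single libraries, 440 to 1410 genes were higher and 300 to 1078 lower. The companion lists, examined under these settings after the data were seen, had 7 genes higher and 8 lower, 11 higher with no filter, and 2 to 8 higher and 2 to 14 lower without single libraries. The ALAS1 to PPOX ratio of 5.71 became 3.14 without length scaling and 2.25 with principal transcript lengths.

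Same-numbered libraries did not consistently deviate together: the correlations over genes were -0.19, 0.42 and -0.10, and 1 of 3 knockout libraries was most alike to its own number. Between different numbers they ran from -0.50 (SKI knockout 2 with control 1) to 0.54 (SKI knockout 3 with control 1). With the replicate number as a block, 1103 genes were higher and 1004 lower, and ALAD was at -0.72 (edgeR adjusted p = 0.0146). With 3 libraries a group, the standard errors of members were 0.146 to 0.177 on the log2 scale. Where no cause is given, the cause was not tested.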

Other observations

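In the lists around heme synthesis, 5 genes had an adjusted p from 0.05 to 0.1 in edgeR's quasi-likelihood test, a range chosen after their values were seen. ABCB10, a mitochondrial inner membrane transporter linked to heme synthesis, stood at 40.9, 70.1 and 39.3 CPM in the SKI knockout and at 66.8, 88.4 and 93.9 CPM in the control with overlap (log2 -0.73, edgeR adjusted p = 0.0604). TMEM14C, an inner membrane protein needed for porphyrin import, stood at 55.2, 61.7 and 76.1 CPM in the SKI knockout and at 53.6, 42.0 and 38.7 CPM in the control, with no overlap (log2 0.52, edgeR adjusted p = 0.0789). PPARGC1B, a co-activator of mitochondrial genes, stood at 19.6, 35.1 and 11.7 CPM in the SKI knockout and at 32.6, 45.9 and 51.6 CPM in the control with overlap (log2 -0.97, edgeR adjusted p = 0.0754). CYC1, the cytochrome c1 subunit of respiratory complex III, stood at 80.9, 110.0 and 80.8 CPM in the SKI knockout and at 123, 144 and 123 CPM in the control, with no overlap (log2 -0.52, edgeR adjusted p = 0.0644). FTH1, the ferritin heavy chain that stores iron, stood at 265, 243 and 501 CPM in the SKI knockout and at 241, 184 and 175 CPM in the control, with no overlap (log2 0.75, edgeR adjusted p = 0.0831).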
